A study of Mus musculus with 6 samples.

Results

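The genes described here belong to the endoplasmic reticulum (ER) stress response and the integrated stress response. They come from a list of names, made with earlier results of these data known, and no threshold on a value chose them: 15 chaperones and folding enzymes, 7 genes of ER-associated degradation, 4 stress sensors and their effectors, and 10 genes of the ATF4 branch. Of the 36 genes, 35 had a probe set of their own among 22180 measured genes. Pdia4, a disulfide isomerase, shares its probe set with a microRNA gene and was left out. Derl2 and Edem1 had a further, dim probe set; the brighter probe set was used for each.

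The livers came from male C57BL/6J mice. HKO mice (SlugHKO, 3 mice) carry Slug f/f alleles and albumin-CreERT2, a Cre that acts once tamoxifen is given. The albumin promoter drives it, which among liver cells limits it to hepatocytes. Slug is the transcription factor encoded by Snai2. Con mice (3 mice) are Slug f/f littermates; the labels used here do not say whether Con mice carry Cre, nor by what schedule the allele was deleted. Both groups ate a high fat diet, in which fat makes up 60% of the calories, from 8 weeks of age and for 11 weeks, so the comparison is between genotypes on that diet, with no chow-fed mice among these arrays. The labels name 3 mice per group with 1 array each. The p-values set a difference against the spread between these mice, where limma draws the variance of each gene toward a value estimated from all genes. RNA came from whole pieces of liver, taken from matching parts, a bulk tissue in which fewer cells of a type and less RNA per cell cannot be told apart.

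Secreted and membrane proteins fold in the ER with the help of chaperones, disulfide isomerases and lectins, and those that fail are drawn back to the cytosol and degraded. When unfolded protein builds up, the membrane sensors IRE1, ATF6 and PERK respond: IRE1 splices Xbp1 RNA, ATF6 is cut to release a transcription factor, and both raise chaperone and degradation genes, while PERK phosphorylates eIF2alpha, which slows translation and favours synthesis of ATF4. ATF4 is also reached from kinases that sense amino acid shortage, viral RNA and heme shortage, hence the name integrated stress response. Hepatocytes secrete most plasma proteins, and this system is much studied in fatty liver.

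The arrays were closely alike, with correlations over all genes from 0.989 to 0.992 within groups and from 0.986 to 0.988 across groups. Snai2 was lower in all 3 HKO arrays (log2 value 5.18 ± 0.54, SD, n = 3) than in the Con arrays (7.61 ± 0.19, SD, n = 3; limma adjusted p = 0.0145). Alb, the defining hepatocyte transcript, stood at a log2 value of 12.44 in Con and 12.45 in HKO. The median over genes was 3.95 on the log2 scale, and values near it are not shown to be above background. Levels of different probe sets are not comparable, so each gene is compared with itself. Summed linear intensities of marker lists, given further on, weigh the brightest probe sets most, and each list is compared only with itself.

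Transcription of chaperone genes in ER stress runs through a short promoter sequence, the ER stress response element (ERSE), in which CCAAT binds NF-Y and CCACG, at a set distance, binds ATF6 or XBP1. CCAAT followed by any 9 bases and CCACG was searched on both strands of RefSeq promoter windows of GRCm38.p6, each from 250 bases before to 50 bases after an annotated start. Of 32851 windows, 0.119% hold it, and these belong to 37 genes. Among the folding genes, 13 have a window in the table and 7 of these hold an ERSE, as do 2 of 6 degradation genes, 0 of 3 sensor genes and 0 of 9 ATF4 branch genes. Hyou1, Manf, Derl1, Atf6 and Ppp1r15b have no entry. The ERSE matches of these 7 folding and 2 degradation genes are shown here because the folding genes had the lowest median difference, HKO minus Con, of the 4 roles. Each is printed 5′ to 3′ along the gene with 15 bases on either side of the match, and the CCAAT and CCACG parts, or their complements ATTGG and CGTGG where the match lies on the other strand, are in capitals. Hsp90b1 holds a pair of matches, so its stretch is longer.
Hspa5, chr2:34772010-34772058, plus strand: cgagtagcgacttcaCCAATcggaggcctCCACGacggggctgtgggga
Hsp90b1, chr10:86705518-86705671, minus strand: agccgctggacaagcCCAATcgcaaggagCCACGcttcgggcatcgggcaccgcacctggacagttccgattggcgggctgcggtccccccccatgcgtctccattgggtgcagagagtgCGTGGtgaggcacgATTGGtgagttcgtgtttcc
Calr, chr8:84847060-84847108, minus strand: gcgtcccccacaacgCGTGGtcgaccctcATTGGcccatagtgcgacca
Canx, chr11:50325785-50325833, minus strand: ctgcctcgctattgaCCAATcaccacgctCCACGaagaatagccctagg
Pdia6, chr12:17266476-17266524, plus strand: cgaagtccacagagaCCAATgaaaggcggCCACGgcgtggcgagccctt
Dnajc3, chr14:118937812-118937860, plus strand: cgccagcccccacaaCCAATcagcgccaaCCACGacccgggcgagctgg
Creld2, chr15:88819505-88819553, plus strand: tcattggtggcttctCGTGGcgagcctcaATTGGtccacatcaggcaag
Syvn1, chr19:6046517-6046565, plus strand: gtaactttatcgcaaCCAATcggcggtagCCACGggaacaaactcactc
Derl3, chr10:75893227-75893275, plus strand: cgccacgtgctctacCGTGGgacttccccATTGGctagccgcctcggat

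Further motifs were searched in the same windows. ERSE-II, ATTGG and CCACG with any 1 base between, lies in 0.0365% of all windows and in those of Herpud1 and Dnajb11. The C/EBP-ATF response element, which ATF4 binds with a C/EBP partner, was searched as TTGCATCA and lies in 0.895% of windows, among them those of Herpud1, Atf3 and Chac1. The XBP1 element TGACGTGG lies in 0.676% of windows and in none of the members'. The stretches of Herpud1, Atf3 and Chac1 are shown because these genes belong to branches whose values are set side by side in what follows; the motif letters are in capitals, and in Herpud1 the C/EBP-ATF match comes before the ERSE-II match. These matches are letters in a window and are not shown to be bound in these livers.
Herpud1, chr8:94386302-94386402, plus strand: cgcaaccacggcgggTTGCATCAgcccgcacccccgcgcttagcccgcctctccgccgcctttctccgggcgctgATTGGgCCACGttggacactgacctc
Atf3, chr1:191183421-191183458, minus strand: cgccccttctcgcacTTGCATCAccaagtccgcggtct
Chac1, chr2:119351034-119351071, plus strand: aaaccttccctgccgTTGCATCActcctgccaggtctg

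Of the chaperones and folding enzymes 14 of 14 measured genes had a lower mean in HKO, where 51.8% of all genes did. In the ATF4 branch 7 had a lower mean and 3 a higher one, the latter by at most 0.13. No member passed adjusted p 0.05 in limma over all genes, a threshold that 45 genes (0.203%) passed, so the differences are given as measured values. At an unadjusted p under 0.05, 16 of the 35 members were lower in HKO and 0 higher, where 6.56% of all genes were lower and 5.31% higher; since the list was made with earlier results known, the count is a description. By role the lower ones were 11 of 14 folding genes, 1 of 7 degradation genes, 1 of 4 sensor genes and 3 of 10 ATF4 branch genes. All HKO arrays lay under all Con arrays in 18 members, 13 of them folding genes, against 10.1% of all genes; in 1 member, Ern1, all HKO arrays lay above, against 8.05% of all genes. The median log2 difference, HKO minus Con, was -0.33 for the folding genes, -0.17 for the degradation genes, 0.03 for the sensors and -0.08 for the ATF4 branch, against -0.0081 over all genes. The count of 16 was 10 without Con replicate 3 and 10 without HKO replicate 2, against 6.24% and 5.74% of all genes in these fits. The folding count of 11 was 7 without HKO replicate 3, against 5.68% of all genes. With a variance trend in the fit, Hyou1 (adjusted p = 0.029), Hspa5 (0.0425) and Creld2 (0.0453) passed adjusted p 0.05, and 215 genes passed in all.

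**Figure D1:**
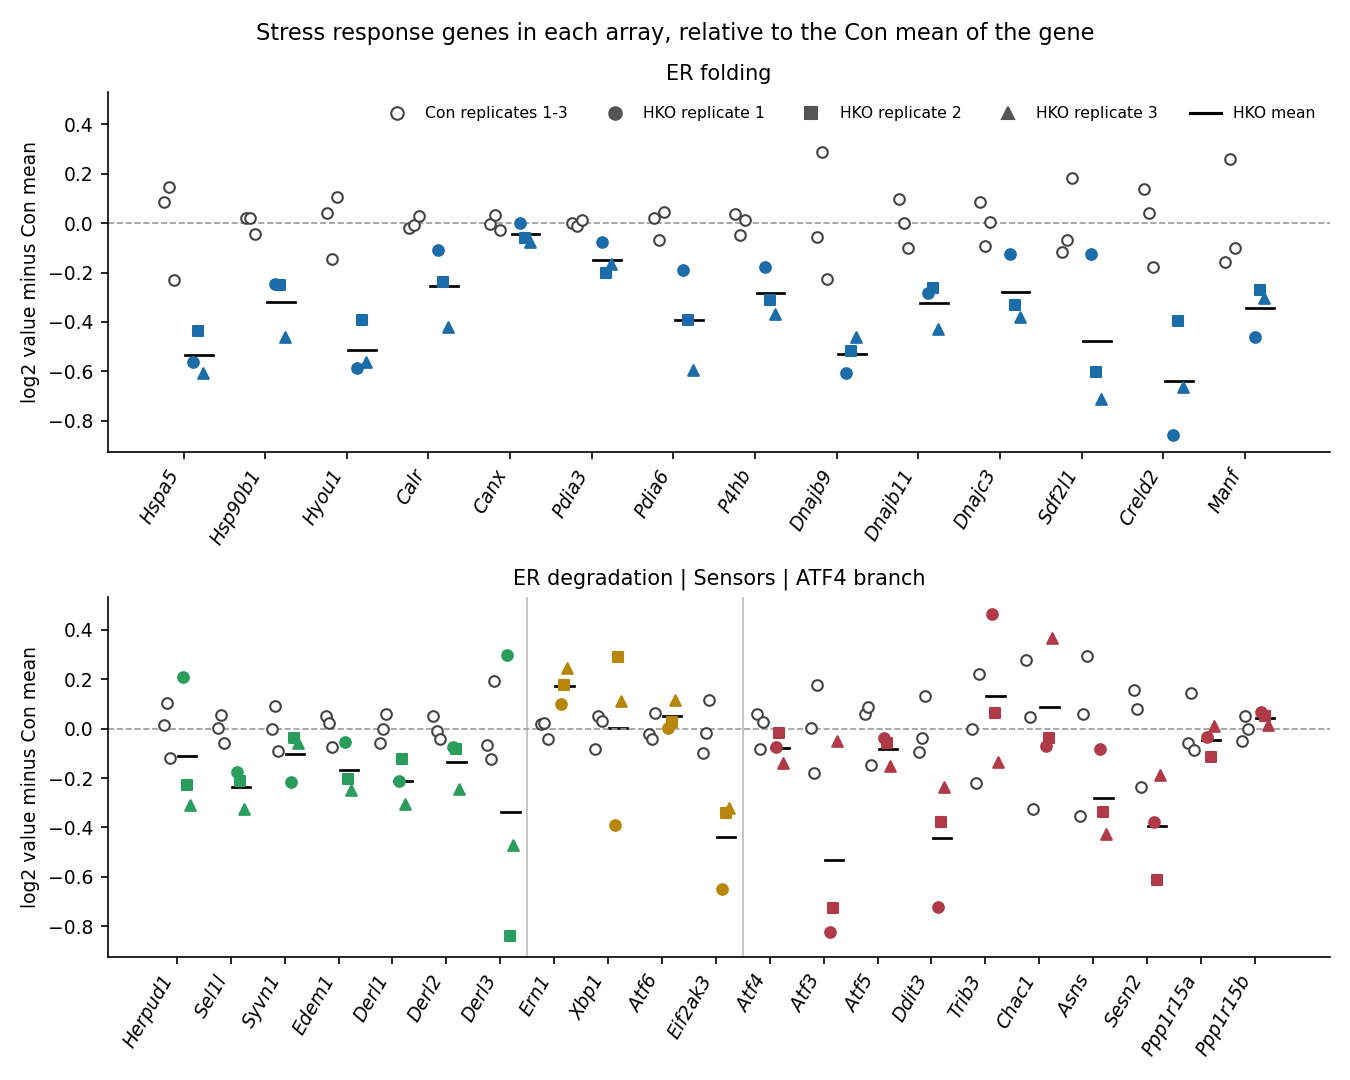
Each point is 1 array: the log2 value of a gene minus the mean of its 3 Con arrays, with Con as open circles, HKO as filled symbols by replicate and the HKO mean as a bar. In the upper panel 13 of 14 folding genes have all HKO points under all Con points, with Canx as the exception; in the lower panel the HKO points of Xbp1, Derl3, Trib3 and Chac1 lie on both sides of the Con mean.

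Among the chaperones of the BiP system, Hspa5, which encodes BiP, the Hsp70 of the ER and the protein that holds the sensors inactive, had log2 values of 8.67, 8.73 and 8.35 in Con and 8.02, 8.15 and 7.98 in HKO. Every HKO array lay under every Con array, and the gap between the nearest arrays was 0.21. The log2 difference was -0.54 ± 0.13 (SE), or 1.45-fold lower (limma adjusted p = 0.179). Hyou1, an Hsp70-related protein that exchanges the nucleotide of BiP, stood at 8.36, 8.17 and 8.42 in Con and 7.73, 7.93 and 7.76 in HKO. These groups did not overlap either, and the difference of -0.51 ± 0.11 had the lowest adjusted p of the members (0.154). Hsp90b1 (GRP94), the Hsp90 of the ER, held 10.66, 10.67 and 10.60 in Con against 10.40, 10.39 and 10.18 in HKO. Its Con arrays lay close together (SD 0.04) and HKO replicate 3 was the lowest array (difference -0.32 ± 0.10, adjusted p = 0.299).

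The J-domain partners of BiP among the members were also lower in HKO without overlap. Outside the members, the J-domain proteins Dnajc1 (0.15) and Sec63 (-0.04) had overlapping groups, and Dnajc10 (-0.20) was lower without overlap. Dnajb9 (ERdj4), which delivers BiP to IRE1, had the values 8.37, 8.72 and 8.20 in Con and 7.82, 7.91 and 7.97 in HKO. The difference was -0.53 ± 0.14 (adjusted p = 0.226), and the Con arrays were spread more widely (SD 0.26) than the HKO arrays (SD 0.07). Dnajb11 (ERdj3), which passes unfolded clients to BiP, ran from 7.73 to 7.93 in Con and from 7.40 to 7.57 in HKO, with Con replicate 3 and HKO replicate 3 lowest in their groups (7.93, 7.83 and 7.73; 7.55, 7.57 and 7.40). It differed by -0.32 ± 0.11 (adjusted p = 0.298). Sdf2l1, a stress-induced partner of Dnajb11, held 6.48, 6.52 and 6.77 in Con and 6.47, 5.99 and 5.88 in HKO, so that HKO replicate 1 came within 0.0082 of the lowest Con array. Its difference was -0.48 ± 0.17 (adjusted p = 0.333). Dnajc3 (p58IPK), a co-chaperone that also inhibits PERK, had 9.30, 9.13 and 9.22 in Con and 9.09, 8.89 and 8.84 in HKO, a difference of -0.28 ± 0.11 with a gap of 0.03 between the nearest arrays (adjusted p = 0.392).

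The disulfide isomerases among the members, which form and rearrange disulfide bonds in folding proteins, differed in size of difference. Of others in the wider family, Pdia5 (0.15), Tmx3 (0.01), Tmx1 (-0.08) and Txndc12 (-0.16) had overlapping groups. Txndc5 (-0.24), Txndc11 (-0.43), Erp44 (-0.14) and Dnajc10, named above, were lower without overlap, as were 10.1% of all genes. Pdia6 held 9.04, 8.95 and 9.06 in Con and 8.83, 8.63 and 8.42 in HKO (-0.39 ± 0.12, adjusted p = 0.293). P4hb, the founding member of the family, held 10.59, 10.51 and 10.57 in Con and 10.38, 10.25 and 10.19 in HKO (-0.28 ± 0.10, adjusted p = 0.334). In both genes HKO replicate 1 was nearest to Con and HKO replicate 3 farthest. Pdia3, which works with the lectin chaperones on glycoproteins, held 9.86, 9.85 and 9.87 in Con and 9.78, 9.66 and 9.69 in HKO, where the groups did not overlap but the difference was -0.15 (95% interval -0.36 to 0.07). The lectin chaperones themselves were calreticulin and calnexin. Calr, the soluble form, held 10.63, 10.64 and 10.68 in Con and 10.54, 10.41 and 10.23 in HKO (-0.25 ± 0.11, unadjusted p = 0.0503, adjusted p = 0.421). Canx, the membrane-bound form, had overlapping groups, with 10.15, 10.19 and 10.13 in Con and 10.15, 10.10 and 10.08 in HKO. Its difference was -0.05 (95% interval -0.26 to 0.17), the smallest of the folding genes.

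Creld2 and Manf encode small proteins that are retained in the ER and secreted under stress. Creld2 had the lowest difference of all members, -0.64 ± 0.15 or 1.56-fold lower (adjusted p = 0.167), from 7.96, 7.87 and 7.65 in Con to 6.97, 7.43 and 7.16 in HKO. Here HKO replicate 1 was lowest, in contrast to Pdia6 and P4hb. Manf, a dim gene on these arrays, had 4.53, 4.95 and 4.59 in Con and 4.23, 4.42 and 4.39 in HKO (-0.35 ± 0.13, adjusted p = 0.378), without overlap. Over the 14 folding genes the lowest HKO array was replicate 3 for 9 genes, replicate 1 for 4 and replicate 2 for 1. Averaged over the 14 genes, HKO replicates 1, 2 and 3 lay at -0.31, -0.33 and -0.44 from the Con mean on the log2 scale, and the Con arrays between -0.04 and 0.02.

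Folding genes with and without an exact ERSE match, as searched here, had like medians. The 7 genes with an ERSE and a value ranged from -0.64 (Creld2) to -0.05 (Canx), with a median of -0.32. The 5 genes with a window and no ERSE, which are Dnajb9, Dnajb11, Sdf2l1, P4hb and Pdia3, ranged from -0.53 to -0.15, with a median of -0.32 as well. That median is the value of Dnajb11, which holds an ERSE-II. The sets are small, and whether the element bears on the differences was not tested. Beyond the members, 20 measured genes hold an ERSE in their window. Of these 13 had lower mean values in HKO, where 51.8% of all genes did, and the median difference of the 20 was -0.09. Both group means were under the median over genes for 4930402F11Rik, Calr4, Esp16, Esp18, Esp36, Gm20560, Olfr59, Tdrd9, Xlr3a, Xlr3b and Xlr3c. Whether these dim genes are expressed in the livers was not tested. The median of the 20 thus cannot tell whether expressed genes with an ERSE follow the folding genes. At an unadjusted p under 0.05, where 6.56% of all genes were lower and 5.31% higher, 1 was lower and 0 were higher. That gene was Ero1b, an oxidase that keeps the disulfide isomerases active, at -0.42 (adjusted p = 0.303).

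**Figure D2:**
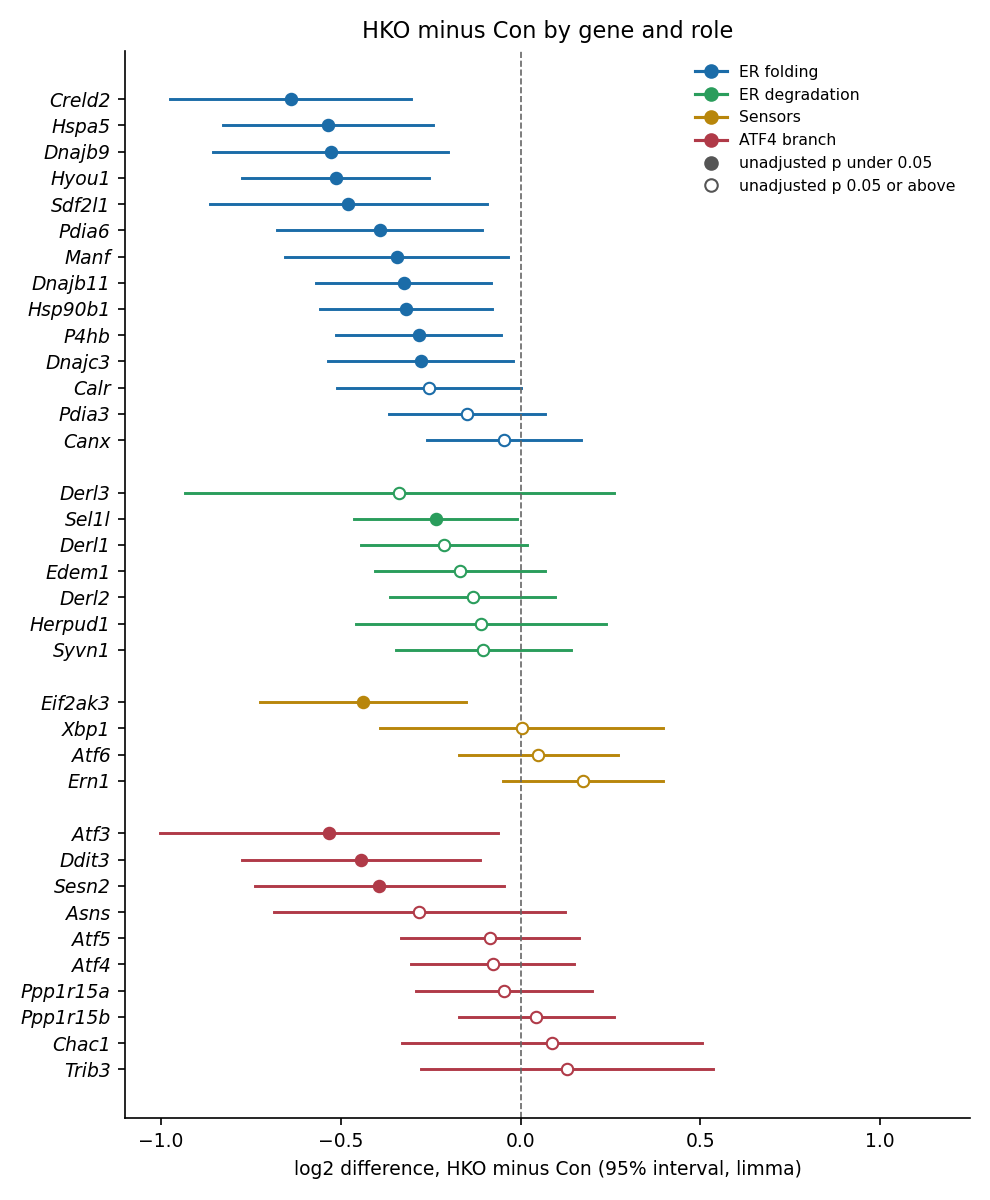
Log2 difference, HKO minus Con, of each measured gene, grouped by role and ordered within it, with limma's 95% interval; filled points have an unadjusted p under 0.05. The 14 folding genes lie between -0.64 and -0.05, while the ATF4 branch runs from -0.53 (Atf3) to 0.13 (Trib3).

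Genes of ER-associated degradation had lower mean values in 7 of 7, where 51.8% of all genes did. The amounts were smaller, and 1 had an unadjusted p under 0.05. That was Sel1l, the adaptor of the HRD1 ubiquitin ligase, with 8.71, 8.76 and 8.65 in Con and 8.53, 8.49 and 8.38 in HKO (-0.24 ± 0.10, adjusted p = 0.405), and the groups did not overlap. Its partner Syvn1, the HRD1 ligase, differed by -0.10 (95% interval -0.35 to 0.14) with overlapping groups. The Derlins, membrane proteins through which misfolded proteins leave the ER, were not alike in spread. Derl1 was at -0.21 (adjusted p = 0.461) and Derl2 at -0.13 (0.658), and in both all HKO arrays lay under all Con arrays. The dim second probe set of Derl2 gave -0.27, and that of Edem1 -0.20. Derl3, a stress-induced and dim member, held 4.63, 4.57 and 4.89 in Con and 4.99, 3.86 and 4.22 in HKO. HKO replicate 1 was thus the highest array and HKO replicate 2 the lowest, and the mean difference of -0.34 had a 95% interval from -0.93 to 0.26.

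Edem1, a mannosidase-like protein that marks glycoproteins for disposal, was at -0.17 (adjusted p = 0.582). Herpud1, a membrane protein of the HRD1 complex, held 10.09, 10.18 and 9.96 in Con and 10.29, 9.85 and 9.77 in HKO. As with Derl3, HKO replicate 1 stood above all Con arrays and the other 2 HKO arrays below them, and the difference was -0.11 (95% interval -0.46 to 0.24). Averaged over the 7 degradation genes, HKO replicate 1 lay at -0.03 from the Con mean, HKO replicate 2 at -0.25 and HKO replicate 3 at -0.28. The median of the degradation genes without HKO replicate 1 was -0.23. The count of 1 gene at an unadjusted p under 0.05 was 0 without any 1 of Con replicates 1, 2 and 3 and HKO replicates 2 and 3, and 2 without HKO replicate 1. In these fits from 5.02% to 6.33% of all genes were lower at that threshold.

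Of the sensors, 1 had a lower mean in HKO and 3 a higher one. Eif2ak3, which encodes PERK, was the lower one, with 5.81, 5.89 and 6.02 in Con and 5.26, 5.56 and 5.58 in HKO. All HKO arrays lay under all Con arrays, HKO replicate 1 lowest, and the difference was -0.44 ± 0.12, or 1.35-fold lower (adjusted p = 0.254). Ern1, which encodes IRE1alpha, held 7.47, 7.47 and 7.40 in Con and 7.55, 7.62 and 7.69 in HKO. It was thus higher in every HKO array, by 0.17 (95% interval -0.05 to 0.40, adjusted p = 0.54 in limma). Atf6 differed by 0.05 (95% interval -0.17 to 0.27), with overlapping groups.

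Xbp1, the RNA that IRE1alpha splices and itself a target of the response, held 8.30, 8.43 and 8.41 in Con and 7.99, 8.67 and 8.49 in HKO. HKO replicate 1 was the lowest array and HKO replicate 2 the highest, so the means were equal within 0.0034 while the HKO arrays had an SD of 0.35 against 0.07 in Con. The 95% interval of the difference ran from -0.39 to 0.40. Without HKO replicate 1 the difference was 0.20, and without HKO replicate 2 it was -0.14. The probe set gives 1 value for the gene and does not tell spliced from unspliced RNA, and cleavage of ATF6 and phosphorylation of PERK, IRE1 or eIF2alpha are not measured on these arrays.

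In the ATF4 branch, Atf4 itself, which is controlled largely at translation, held 6.97, 6.83 and 6.94 in Con and 6.84, 6.89 and 6.77 in HKO. The groups overlapped and the difference was -0.08 (95% interval -0.30 to 0.15). Of the transcription factors downstream, Ddit3 (CHOP), which is linked to cell death under long stress, had 5.32, 5.38 and 5.55 in Con and 4.69, 5.04 and 5.18 in HKO. Of the 10 genes only its groups did not overlap, at -0.44 ± 0.14 or 1.36-fold lower (adjusted p = 0.296). Atf3, which is induced by many stresses, held 4.29, 4.11 and 4.46 in Con and 3.47, 3.56 and 4.24 in HKO, where HKO replicate 3 lay among the Con arrays. The difference was -0.53 ± 0.20 (adjusted p = 0.371), and the HKO mean of 3.75 lay under the median over genes. Atf5, a factor whose synthesis is also favoured when translation slows, differed by -0.08 (95% interval -0.33 to 0.16).

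Effectors of the branch had differences of both signs. By group means, Asns (4.49 in Con and 4.21 in HKO), Trib3 (4.38 and 4.51), Chac1 (4.82 and 4.91) and Ppp1r15a (4.47 and 4.43) were dim. Their differences may thus be compressed, and of the folding genes only Manf was as dim. Sesn2, a stress-induced inhibitor of mTORC1, held 5.37, 5.30 and 4.98 in Con and 4.84, 4.61 and 5.03 in HKO. HKO replicate 3 lay just above Con replicate 3, and the difference was -0.39 ± 0.15 (adjusted p = 0.371). Asns, asparagine synthetase, held 4.14, 4.55 and 4.79 in Con and 4.41, 4.16 and 4.07 in HKO, with overlapping groups and a difference of -0.28 (95% interval -0.69 to 0.12). Trib3, a pseudokinase that binds AKT and ATF4, differed by 0.13 (95% interval -0.28 to 0.54), and Chac1, which breaks down glutathione, by 0.09 (-0.33 to 0.50). In Trib3 the highest HKO array was replicate 1 at 4.84, and in Chac1 it was replicate 3 at 5.19, so the highest HKO array was not the same. The phosphatase subunits that reverse eIF2alpha phosphorylation were close to Con: the inducible Ppp1r15a (GADD34) at -0.05 (95% interval -0.29 to 0.20) and the constitutive Ppp1r15b (CReP) at 0.04 (-0.17 to 0.26). Averaged over the 10 genes, the HKO arrays lay at -0.17, -0.22 and -0.09 from the Con mean, all under the Con arrays, while the median over the genes was -0.08. The lowest differences in that mean were those of Atf3, Ddit3 and Sesn2. The count of 3 genes at an unadjusted p under 0.05 was 1 without Con replicate 3, without HKO replicate 1 or without HKO replicate 2. In these fits 6.24%, 6.33% and 5.74% of all genes were lower at that threshold.

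**Figure D3:**
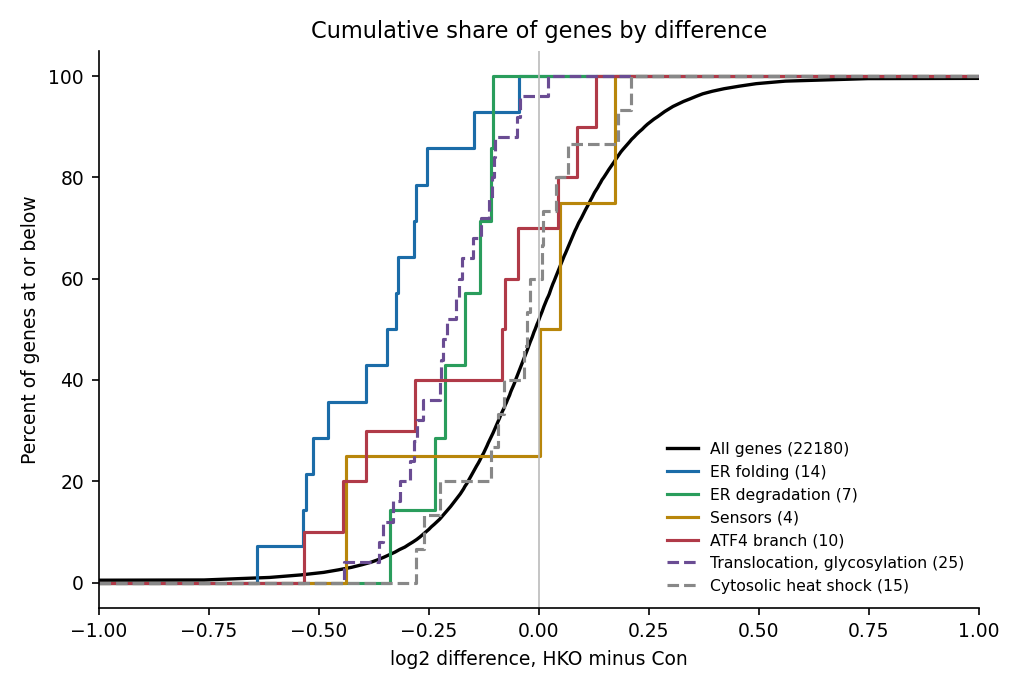
Cumulative percent of genes (vertical axis) by log2 difference, HKO minus Con (horizontal axis), for all genes, for the 4 roles and for 2 further lists, with the number of genes in brackets. The median is -0.33 for the folding genes, -0.21 for the translocation and glycosylation genes and -0.03 for the cytosolic heat shock genes, against -0.0081 for all genes.

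The secretory pathway around these members was measured with lists of genes not among them. Their counts stand beside shares over all genes of 51.8% with a lower mean in HKO, 6.56% lower and 5.31% higher at an unadjusted p under 0.05, and 10.1% with all HKO arrays under all Con arrays. Genes for translocation into the ER and N-glycosylation had lower mean values in 24 of 25, with a median log2 difference of -0.21, and 8 had an unadjusted p under 0.05 in that direction. Sec11c, a signal peptidase subunit, was at -0.44 (adjusted p = 0.18) and Sec61g, a subunit of the translocation channel, at -0.35 (0.238); all HKO arrays lay under all Con arrays in 17 of the 25. Further ER folding enzymes were lower in 21 of 26 (median -0.11), 6 of them at an unadjusted p under 0.05, led by the prolyl isomerase Fkbp7 at -0.53 (adjusted p = 0.154) and the thioredoxin-like Txndc11 at -0.43 (0.278). ER export genes were lower in 16 of 20 (median -0.11), 5 at an unadjusted p under 0.05, with the COPII coat protein Sec23b at -0.47 (adjusted p = 0.168) and the cargo receptor subunit Mcfd2 at -0.44 (0.205). None of the genes in these lists, or in the 5 lists described next, passed adjusted p 0.05 in limma.

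Further degradation genes were lower in 14 of 21 with a median of -0.05; 3 were lower and 1 higher at an unadjusted p under 0.05, and Ubxn4 was at -0.32 and Selenos at -0.43. Other sensors and regulators were evenly split, 8 lower and 8 higher (median 0.0075), with Creb3l1, a membrane-bound factor related to ATF6, at -0.58 (adjusted p = 0.199) and Wfs1, an ER membrane protein, at -0.34 (0.353). Other targets of ATF4 were lower in 26 of 34 (median -0.11), with 5 lower and 2 higher at an unadjusted p under 0.05, where all genes gave 6.56% lower and 5.31% higher. In that list the receptor gene Vldlr was at -0.89 (adjusted p = 0.167) and the glycyl-tRNA synthetase gene Gars at -0.40 (0.226).

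Chaperones of other compartments served as a comparison. Cytosolic heat shock genes were lower in 9 of 15 with a median of -0.03, and 2 were lower at an unadjusted p under 0.05, Bag3 (-0.28) and Hspa4 (-0.26). Mitochondrial chaperones and proteases were lower in 8 of 12 with a median of -0.04; Clpp stood at 0.22 and Clpx at -0.23. In both lists the averages of the HKO arrays overlapped those of the Con arrays. The averages of the folding, degradation and ATF4 branch members, of the further folding and degradation genes, of translocation and glycosylation genes and of ER export genes were lower in all HKO arrays than in all Con arrays. So was the average of all genes, by far less, from -0.0119 to -0.0059 in HKO and from -0.0010 to 0.0020 in Con.

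**Figure D4:**
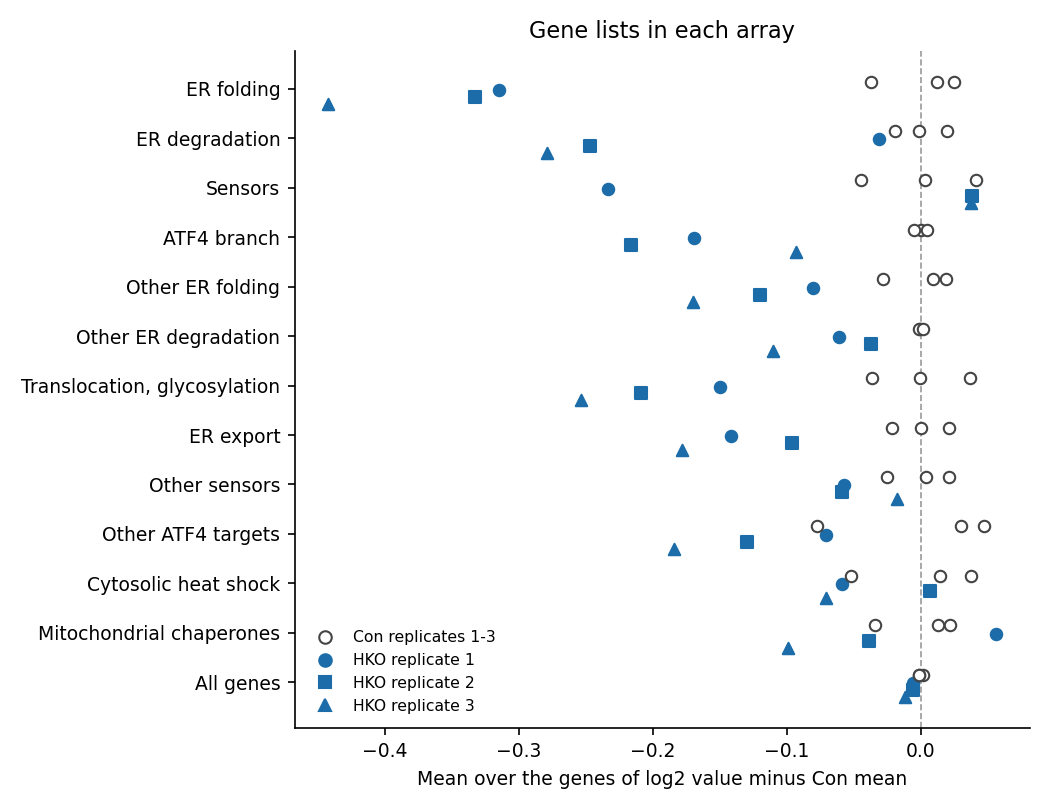
Each point is 1 array: the mean over the genes of a list of the log2 value minus the gene's Con mean, with Con as open circles and HKO as filled symbols by replicate. In the ER folding list the HKO arrays lie from -0.44 to -0.31 and the Con arrays from -0.04 to 0.02, while for all genes the 6 arrays lie from -0.0119 to 0.0020.

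Markers of some other liver cells differed between the same arrays, while those of others had overlapping sums. The part of these cells in the values of the ER genes was not tested. Over all genes, 51.8% had a lower mean in HKO. Of 10 marker genes of macrophages derived from monocytes, all were lower in HKO, by a median of -0.59, with summed linear intensities from 312 to 337 in Con and from 192 to 245 in HKO; 2 of the 10 had both group means under the median over genes, and Itgax passed (limma adjusted p = 0.028). Stellate cell and fibroblast markers were lower in 9 of 12 (sums 1913 to 2130 in Con and 1644 to 1820 in HKO), with the collagen gene Col1a2 at -0.98 (adjusted p = 0.0415), and the stellate markers Lrat at 0.03 and Reln at -0.0047. Endothelial markers were lower in 6 of 10 (2229 to 2274 and 2112 to 2207) and Kupffer cell markers in 7 of 10 (1326 to 1692 and 1317 to 1511). The Kupffer cell markers Clec4f (0.20, without overlap), Timd4 (0.12) and Vsig4 (0.04) were higher. The 7 lower ones ran from -0.54 (Marco) to -0.06 (C1qb). Markers of B cells and of plasma cells, the latter rich in ER, were higher in 8 of 11 (235 to 287 and 324 to 416). Of the 11, 7 were under the median over genes in both groups. The immunoglobulin genes Jchain (1.42) and Ighm (0.97) had the highest differences in that list, and the other 9 genes lay between -0.20 (Sdc1) and 0.18 (Mzb1).

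Hepatocyte markers were higher in 10 of 12, with sums from 20270 to 21661 in Con and from 20396 to 23273 in HKO. T and NK cell markers were lower in 7 of 9 (94 to 151 and 109 to 124), with 7 under the median over genes in both groups. Cholangiocyte markers were lower in 5 of 6 (109 to 128 and 103 to 138; 3 under the median). Exocrine pancreas markers, from another cell rich in ER, were lower in 4 of 6 (45.5 to 52.2 and 41.8 to 50.4), and all 6 were under the median over genes in both groups.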

How the data were processed

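RNA of 6 livers, 1 mouse to an array, was measured on Affymetrix arrays that cover whole transcripts. The authors deposited log2 values, 1 for each probe set on each array; per the submitters' processing notes, RMA and R 3.3.0 were used. RMA corrects background, gives all arrays the same distribution and summarises the probes of a set. Differences of dim genes are compressed on such arrays. No source used here names the annotation or genome build behind them. Arrays carry no read depth; their number limits the precision.

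Of 41345 probe sets, the platform's annotation names 1 gene for 23521, several for 1814 and none for 16010; 23328 had their Entrez identifier in RefSeq's gene table for GRCm38.p6. Where a gene had several probe sets, the brightest by mean over the 6 arrays was used, which left 22180 genes, with no filter on low values. HKO was compared with Con in limma 3.58.1 (R 4.3.3, default lmFit and eBayes) with group as the single term. Tests were two-sided and adjusted over all genes by the Benjamini-Hochberg method, and a gene was called at adjusted p 0.05. Errors of differences are limma's moderated SE and 95% intervals. No test was run over a list, and the fit was tested on simulated data. The members and lists were chosen with earlier results of these data known. Every member is named, with its array values where the unadjusted p was under 0.05, for Xbp1, Atf4 and a few others chosen after their values were seen. In each further pathway list the 2 genes with the lowest p are named. Alternatives were other normalizations, filters, probe set choices and variance models, weighting of arrays, a block on replicate number, a threshold of 0.1 and leaving out each array. Promoter windows are RefSeq's, on GRCm38.p6; 31 of the 36 listed genes have one. Plots used matplotlib 3.10.9 (Python 3.11.15).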

Additional observations from a re-analysis of the deposited data

How the results depend on the processing

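The direction of the folding genes (14 of 14 lower in HKO), the degradation genes (7 of 7), Ern1, Atf6 and Eif2ak3 was the same in the 16 other fits tried; in the ATF4 branch 7 of 10 genes kept their sign, and Xbp1, Trib3, Chac1 and Ppp1r15a changed it in at least 1 fit. With a variance trend 3 members passed adjusted p 0.05 and 1 was higher at an unadjusted p under 0.05. In that fit Hsp90b1, Dnajb9 and P4hb had limma adjusted p from 0.073 to 0.0884. No member passed 0.1 in the main fit, and none passed 0.05 in any of the other fits. With either filter on low values, Hyou1, Creld2 and Hspa5 had limma adjusted p from 0.0626 to 0.0813. The cause of the change with the variance trend was not tested. With each array left out in turn, the count of members lower at an unadjusted p under 0.05 ran from 10 to 15. The share of all genes lower at that threshold ran from 5.02% to 6.33%. The members past adjusted p 0.05 stayed at 0, and those higher at an unadjusted p under 0.05 stayed at 0. The medians ran from -0.37 to -0.28 (folding), -0.23 to -0.13 (degradation), -0.04 to 0.14 (sensors) and -0.11 to -0.06 (ATF4 branch). Among genes with a mean above the median over genes, 18 of the 35 members were lower at an unadjusted p under 0.05, against 11.4% of those genes. Deviations from the group mean were nearly uncorrelated over all genes between mice with the same replicate number (0.03, 0.02 and 0.02). The labels do not say whether the numbers pair mice, and these correlations cannot decide it. With the replicate number as a block, 0 members passed adjusted p 0.05, while the genes called in all went from 45 to 3. In that fit 14 members were lower at an unadjusted p under 0.05, against 6.26% of all genes. With 3 arrays a group an exact permutation test of a single gene cannot go below p = 0.1.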
